A study of Mus musculus with 4 samples.

Results

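The carnitine shuttle genes around the deleted Cpt1a were examined for chromatin accessibility in sorted mouse bone marrow cells. The 7 genes were Cpt1a, Cpt1b, Cpt1c, Cpt2, Slc25a20, Crat and Crot, out of 49550 genes in the annotation. Every peak that touched one of these genes or the 5000 bp on either side was taken, and overlapping peaks were merged into union regions, which gave 73 of the 337776 regions of the 4 libraries. The rule that picked the regions used gene positions and no measured value, but the genes were chosen with earlier results of these data known. In ATAC-Seq a transposase inserts into open DNA, and peaks are the stretches where insertions pile up, which mark accessible chromatin. There were 2 control libraries, from mice that the labels call WT and the study calls Cpt1a fl/fl, and 2 KO libraries, labelled Cpt1a-KO, in which Cpt1a fl/fl mice carried Vav1-Cre+. The Vav1 promoter drives Cre in blood cells, so the deletion covered the whole blood system and not stem cells alone. All mice were adult, of both sexes and on a C57BL/6, CD45.2 background, and whether a library came from 1 mouse or from pooled mice was not given. The control is described as carrying the floxed alleles without deletion, and no Cre-only group was analysed here. The labels give the cells as ltHSC, long-term hematopoietic stem cells, while the study describes them as HSPCs, hematopoietic stem and progenitor cells.

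Long-chain fatty acids reach mitochondrial beta-oxidation through the carnitine shuttle. CPT1 enzymes on the outer mitochondrial membrane move the acyl group from CoA to carnitine, the carrier encoded by Slc25a20 takes the acylcarnitine across the inner membrane, and CPT2 on the inner side hands the acyl group back to CoA. CPT1A is the liver form and is present in many tissues, CPT1B is the muscle form, and CPT1C is found mainly in neurons. CRAT exchanges acetyl groups between CoA and carnitine, and CROT does the same for medium-chain acyl groups in peroxisomes.

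For each library the lists gave positions of peak summits with the fold over background and a −log10 q, and no read counts, so the depth was unknown. A region was therefore described by the percentile of its best summit, by fold, among all summits of the same library, and by 0 where the library held no peak. A region was called higher in a genotype when both of its libraries were above both libraries of the other. With 2 libraries against 2, an exact two-sided permutation test cannot give a p below 0.333, so no test was run and all differences between the genotypes are descriptions of these libraries. The libraries held 240940 to 277594 summits. Strong summits, those whose −log10 q reached 5 or more, made up 42.5% and 46.8% of them in control and 40.5% and 35.1% in KO. KO 2 thus had the shortest list and the smallest share of strong summits, although its median fold of 3.65 was the highest. Differences at the strongest and start-site regions are also given as ranges with each library left out. Of 9 stem and progenitor marker genes, Kit, Procr, Mecom, Hlf, Fgd5, Meis1, Gata2, Slamf1 and Cd34, all 9 had a region in all 4 libraries and over their start site, with a median best percentile of 92.2 to 95.1 per library. Markers of other cells were not all closed. The 4 T cell genes had medians of 73.3 to 79.9 and no shared region at Cd8a, the 2 B cell genes 93.9 to 97.7, the 4 myeloid genes 76.2 to 83.2 with no shared region at Ly6g, the 2 erythroid genes 95.6 to 96.4, the 2 megakaryocyte genes 86.6 to 92.8, and the 4 genes not expected in blood 84.1 to 86.5. A region over the start site in all 4 libraries was found at Cd79a (B cell), S100a8 and Itgam (myeloid), Pf4 and Itga2b (megakaryocyte) and Neurod1 (not blood). The start sites of Cd4, Ms4a1, Myod1 and Cdh1 were not analysed here. Their part in the results at the shuttle genes was not tested.

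The start sites of the shuttle genes differed widely in how open they were. Start positions and the bases before them were taken from RefSeq (GRCm38.p6, the same build as mm10), which matched 5 of the 7 genes: Cpt1a, Cpt1c, Cpt2, Slc25a20 and Crot. Cpt1b and Crat had no entry. The 250 bases upstream of 4 of these start sites are shown, 5′ to 3′ on the strand of the gene, because they span the range of start-site accessibility from the most open (Cpt2, Crot) through the deleted gene (Cpt1a) to the least open (Cpt1c). Capitals mark the GC box (GGGCGG), the CCAAT box (CCAAT), the ETS core (CCGGAA) and the single site of nuclear receptors such as PPARs (AGGTCA), on either strand. The windows were chr4:107923590-107923839 on the minus strand for Cpt2, chr5:8997147-8997396 on the minus strand for Crot, chr19:3323051-3323300 on the plus strand for Cpt1a and chr7:44974852-44975101 on the minus strand for Cpt1c.
Cpt2: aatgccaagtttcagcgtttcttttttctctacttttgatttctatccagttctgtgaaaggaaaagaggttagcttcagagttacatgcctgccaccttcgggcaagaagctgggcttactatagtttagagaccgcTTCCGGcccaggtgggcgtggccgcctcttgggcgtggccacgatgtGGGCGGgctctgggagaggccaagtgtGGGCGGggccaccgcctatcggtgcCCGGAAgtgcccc
Crot: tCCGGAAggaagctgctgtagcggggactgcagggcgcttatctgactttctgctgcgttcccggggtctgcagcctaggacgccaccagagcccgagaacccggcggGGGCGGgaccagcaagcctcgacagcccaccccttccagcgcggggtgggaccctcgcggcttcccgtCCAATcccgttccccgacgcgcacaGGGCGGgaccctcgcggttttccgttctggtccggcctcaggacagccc
Cpt1a: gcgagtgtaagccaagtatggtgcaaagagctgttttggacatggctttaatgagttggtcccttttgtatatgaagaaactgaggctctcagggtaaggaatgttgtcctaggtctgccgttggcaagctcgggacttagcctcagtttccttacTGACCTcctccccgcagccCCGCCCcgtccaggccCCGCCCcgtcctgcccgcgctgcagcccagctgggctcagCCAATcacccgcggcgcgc
Cpt1c: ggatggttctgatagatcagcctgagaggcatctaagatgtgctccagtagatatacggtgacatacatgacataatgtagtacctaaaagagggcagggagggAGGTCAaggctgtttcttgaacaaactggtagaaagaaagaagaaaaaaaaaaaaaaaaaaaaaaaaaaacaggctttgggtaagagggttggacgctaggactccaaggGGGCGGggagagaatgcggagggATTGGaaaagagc

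The motifs of these promoters were common ones. A GC box, which SP factors bind, was found in 33.0% of the 32619 promoters searched over the same length, a CCAAT box in 34.0%, an ETS core in 12.1% and AGGTCA in 14.1%. The Cpt2 window held 2 GC boxes and 2 ETS cores, and the Crot window 2 GC boxes, 1 CCAAT box and 1 ETS core. The Cpt1a window held 2 GC boxes, 1 CCAAT box and 1 AGGTCA, and the Cpt1c window 1 of each of these 3. The Slc25a20 window, which is not shown, held 3 GC boxes and 1 ETS core. Neither the direct repeat AGGTCANAGGTCA, which contains the single site and was found in 0.0337% of promoters, nor the E-box CACGTG, found in 6.06%, was in any of the 5 windows. GC content was 69.6% at Crot, 59.6% at Cpt1a, 56.8% at Cpt2 and at Slc25a20, and 44% at Cpt1c, against a median of 52.4% over all promoters. The Crot window held 25 CpG, Cpt1a 14, Cpt2 13, Slc25a20 8 and Cpt1c 4, against a median of 6. The Cpt1c window was the only 1 of the 5 below the median in both measures. A motif match describes letters and not a bound factor.

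**Figure D1:**
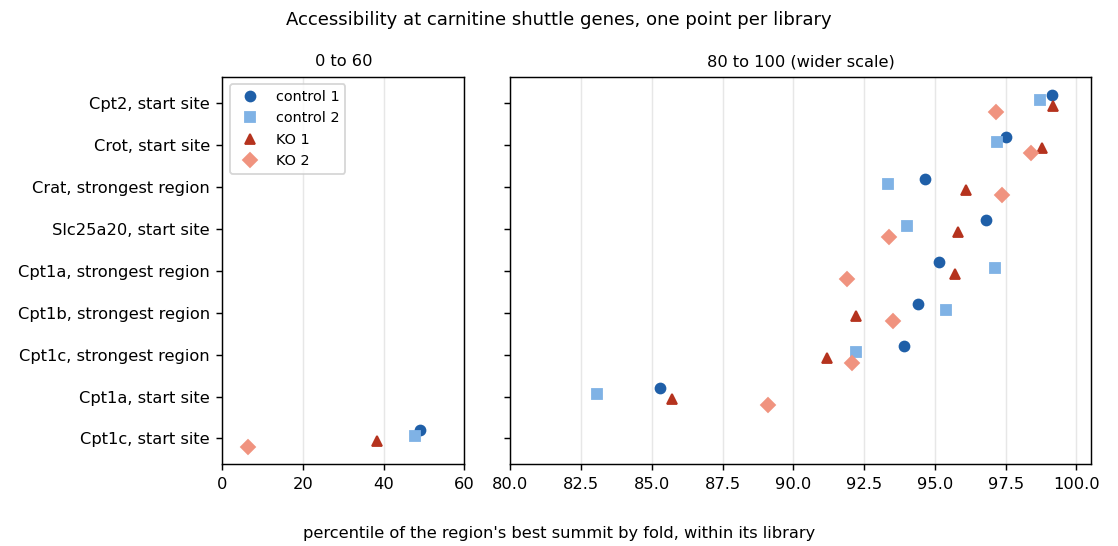
Percentile of the best summit by fold within its library (horizontal axis, drawn in 2 panels with different scales) for the strongest and the start-site region of each gene, with 1 point per library and controls in blue and KO in red. All libraries lie at 91.2 or above for the strongest region of every gene, the Cpt1a start site lies between 83.1 and 89.1, and the Cpt1c start site falls to 6.27 in KO 2.

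Ordered by mean percentile over the 4 libraries, the strongest regions were those of Cpt2 (98.5 ± 0.938, SD, n = 4), Crot (98.0 ± 0.741), Crat (95.4 ± 1.74), Slc25a20 (95.0 ± 1.58), Cpt1a (95.0 ± 2.22), Cpt1b (93.9 ± 1.36) and Cpt1c (92.3 ± 1.14). The ranges of neighbors in this order overlapped throughout. The start-site region of Cpt1a (85.8 ± 2.50) lay below all of them without overlap, and that of Cpt1c (35.3 ± 19.9) lowest. Among 18822 genes with a region in all 4 libraries, 80.4% had a strongest region of lower mean percentile than Cpt2, 73.5% than Crot, 50.7% than Cpt1a and 39.6% than Cpt1c. The strongest regions of the shuttle genes therefore spanned the middle and upper part of the genes compared. Of 21044 start sites of protein-coding genes, 60.6% had a region in all 4 libraries, with a median mean percentile of 95.6 and quartiles of 87.0 and 98.3. Of those start sites, 78.2% lay lower than that of Cpt2, 70.7% lower than Crot, 46.9% lower than Slc25a20, 23.1% lower than Cpt1a and 1.29% lower than Cpt1c.

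The targeted gene, Cpt1a (chr19:3322326-3385735, plus strand), kept its start-site region in every library. This region (chr19:3322683-3323572, covering the whole window printed above) had percentiles of 85.3 and 83.1 in control and 85.7 and 89.1 in KO, with folds of 7.96, 7.5, 8.0 and 9.07. Both KO libraries were above both controls, by a mean of 3.25 percentile points, less than the 3.38 between the KO libraries. Without KO 2 the difference was 1.56, without KO 1 4.93, and by −log10 q, which was 74.8 and 75.9 in control and 69.8 and 58.2 in KO, the percentiles overlapped. The call was also lost when only summits with a −log10 q of 5 or more were kept. The best summit lay 43, 39, 17 and 30 bp before the start site in control 1, control 2, KO 1 and KO 2. All 4 summits thus lay within the last part of the printed window. The start site used, chr19:3323301, lies inside the gene, whose annotated first base is chr19:3322326. A separate region over that first base, chr19:3322225-3322558, had percentiles of 49.0 and 43.4 in control and 25.4 and 55.7 in KO, with overlap. When only summits with a −log10 q of 5 or more were kept, that region was higher in control. An open start site does not report on transcript or protein, so these peaks do not check the deletion.

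The strongest region of Cpt1a was inside the gene body and not at its start. It lay at chr19:3359607-3360585, with its middle 36795 bp after the start site. Its percentiles were 95.1 and 97.1 in control and 95.7 and 91.9 in KO, with folds of 13.5, 15.8, 14.2 and 10.5. The genotypes overlapped, and the difference of −2.35 was smaller than the 3.82 between the KO libraries. A further region of the gene body (chr19:3325075-3325749), 2111 bp after the start site, had percentiles of 84.6 and 86.7 in control and 89.4 and 81.9 in KO, again with overlap. The 5 protein-coding genes whose strongest region was nearest to that of Cpt1a over the 4 library percentiles, as Euclidean distance among 18821 genes, were Btaf1 (0.843), Chic2 (1.04), Nmnat3 (1.05), and Mrpl43 and Sema4g (1.09 each, from 1 shared region). This likeness over 4 libraries describes the values alone.

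**Figure D2:**
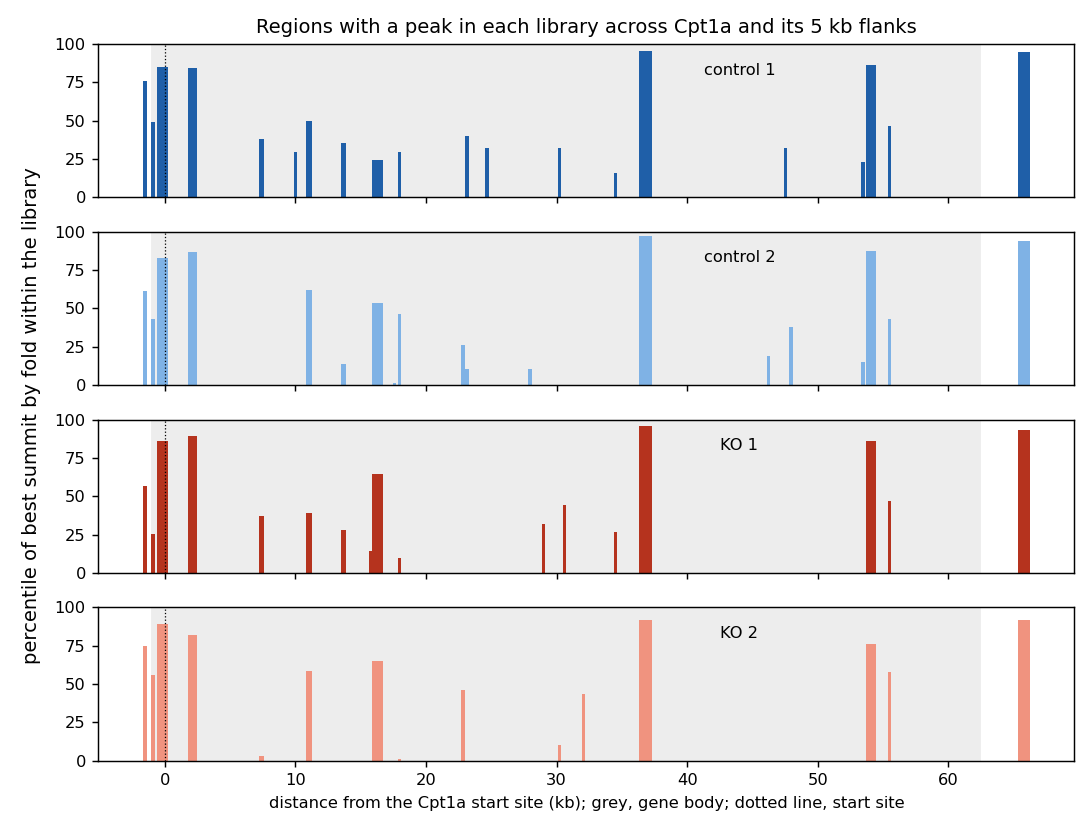
Regions with a peak in each library across Cpt1a and its 5000 bp flanks, with distance from the start site in kb on the horizontal axis and the percentile of the best summit within the library as bar height; each bar spans the union region, grey marks the gene body and the dotted line the start site. The tall bars at the start site, 36795 bp after it and past the end of the gene stand in all 4 libraries, and the short bars between them differ from library to library.

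Cpt1a held 29 of the 73 regions, 18 of them in at least 2 libraries and 11 in all 4. Peaks covered 7266 and 7318 bp of the gene and its flanks in control and 5697 and 5502 bp in KO. Over the genome, the intervals covered 52.9 and 48.9 Mb in control and 42.6 and 44.4 Mb in KO, so less sequence was under peaks in KO at this gene and in the lists as a whole. Besides the start site, 2 regions of the gene body were higher in KO and 4 were higher in control, as was 1 past its end. That made 3 of the 18 shared regions higher in KO and 5 higher in control. Over all shared regions of the genome the shares were 13.9% and 23.4%. Of the 2 higher in KO, chr19:3339166-3340034 had percentiles of 24.4 and 53.6 in control and 64.5 and 65.0 in KO. The KO peaks there covered 318 and 235 of the 869 bp, and when a library had to cover a share of at least 0.5 of a region, neither KO library counted and the call turned to control. The second, chr19:3378683-3378878, had 46.3 and 43.0 against 46.9 and 57.9, so that KO 1 was barely above control 1. Both differences were smaller than the gap inside a genotype.

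Among the regions higher in control, chr19:3341153-3341369 had percentiles of 29.7 and 46.7 in control and 9.90 and 1.02 in KO, a difference of −32.7 that exceeded both gaps. The regions chr19:3346291-3346591 (39.8 and 10.8 in control) and chr19:3376665-3376868 (22.9 and 15.2) had a peak in both controls and in neither KO library. All 3 were weak, with a fold of at most 3.48. The region chr19:3376995-3377739, which holds the start of the lncRNA gene Gm36532 inside Cpt1a, had 86.0 and 87.6 in control and 86.0 and 76.2 in KO, so that the difference of −5.72 came mainly from KO 2. The region past the end of Cpt1a, chr19:3388598-3389556, lies 2863 bp after the gene over the start of Tesmin. Its percentiles were 94.5 and 94.3 in control and 93.0 and 91.7 in KO, and its difference of −2.01 exceeded the gaps of 0.210 and 1.30.

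The longest stretch of the Cpt1a body without a peak ran over 10304 bp in control 1 and 8899 bp in control 2, against 16570 bp in KO 1 and 16541 bp in KO 2. It spanned chr19:3360450-3377019 in KO 1 and chr19:3360509-3377049 in KO 2, and began just after the strongest region in all 4 libraries. The controls had weak peaks in this stretch that the KO libraries lacked, 1 region shared by both (chr19:3376665-3376868) and others in a single control. Which exons lie between the loxP sites is not given in the sources used here, so this stretch could not be set against the deleted segment. The same measure was not taken at other genes, and the lists as a whole covered less sequence in KO.

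Cpt1b (chr15:89416405-89425862), the muscle form, had no region shared by 2 libraries in its gene body, and 6 of its 7 regions were in 1 library. Its 1 shared region, chr15:89429315-89430256, lies 3453 bp beyond the gene over the starts of Chkb, a choline kinase gene, and C730034F03Rik, and inside Gm44502, a transcribed locus that spans Chkb and Cpt1b. The percentiles there were 94.4 and 95.4 in control and 92.2 and 93.5 in KO. Both controls were higher, and the difference of −2.03 exceeded the gaps of 1.01 and 1.32. With 1000 bp flanks or none, this region was not counted for Cpt1b.

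Cpt1c (chr7:44958483-44974880, minus strand) had the weakest start site of the 5 genes with a known start position. The region over the start, chr7:44974395-44974903, had percentiles of 49.0 and 47.7 in control, 38.4 in KO 1 and 6.27 in KO 2, and folds of 3.46, 3.54, 3.10 and 2.42. Both controls were above both KO libraries, but the difference of −26.0 was smaller than the 32.2 between the KO libraries, and it was −9.88 without KO 2 and −42.1 without KO 1. The best summits lay 344 to 417 bp after the start, on the gene side, so the printed window was mostly outside the region. The strongest Cpt1c region was instead chr7:44970180-44970813 in the gene body, with 93.9 and 92.2 in control and 91.2 and 92.1 in KO. Its difference of −1.45 was smaller than the 1.70 between the controls, and was −0.600 without control 1 and −2.30 without control 2. This call held under 1 of 5 other ways of ranking or selecting summits.

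The other calls at Cpt1c went both ways. At the far end of the gene, chr7:44958304-44958623 had 80.6 and 77.2 in control and 86.3 and 82.0 in KO, and its difference of 5.27 exceeded the gaps of 3.41 and 4.21. Inside the gene, chr7:44962633-44963104 had 59.9 and 56.0 in control against 50.6 and 19.1 in KO. Inside the neighboring gene Tsks, chr7:44955759-44955918 had 57.3 and 53.1 in control against 50.3 and 21.1 in KO. In both of the latter, KO 2 lay far below KO 1, and the gap between the KO libraries was larger than the difference between the genotypes.

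**Figure D3:**
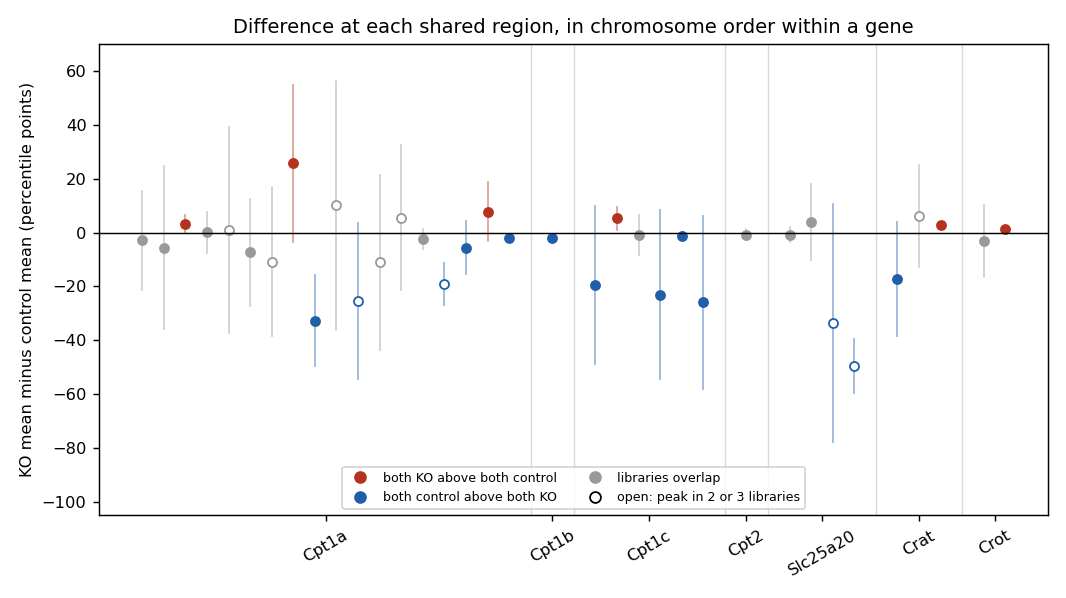
Mean percentile in KO minus mean in control (vertical axis, percentile points) at each of the 35 shared regions, in chromosome order within each gene. Red and blue points are regions without overlap between the genotypes, grey points overlap, open circles have a peak in 2 or 3 libraries, and lines extend by the larger of the 2 within-genotype gaps on each side; the lines clear 0 in 8 regions.

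The translocase gene Slc25a20 (chr9:108662136-108684642, plus strand) was open at its start site in every library. At chr9:108661797-108662742 the percentiles were 96.8 and 94.0 in control and 95.8 and 93.4 in KO, with folds of 15.5, 12.6, 14.3 and 11.5. The genotypes overlapped, with a difference of −0.821 against gaps of 2.79 and 2.43. The best summit lay 49, 41, 44 and 76 bp before the start. A gene body region, chr9:108669802-108670331, also overlapped, with 80.4 and 74.6 in control and 74.5 and 88.6 in KO. The 2 regions higher in control were weak: chr9:108673280-108673428 had 53.6 and 58.0 against 44.1 in KO 1 and no peak in KO 2, and chr9:108686195-108686752, 1553 bp past the gene, had 54.5 and 44.6 against no peak in either KO library, although KO 1 had a separate peak just beyond it at chr9:108686759-108686831. The second had the largest difference of all shuttle regions, −49.5.

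Cpt2 (chr4:107903982-107923589, minus strand), the inner membrane enzyme, had the most open start site of the group. At chr4:107922930-107923886, which covers the printed window, the percentiles were 99.1 and 98.7 in control and 99.2 and 97.2 in KO, and the folds 20.3, 18.8, 20.5 and 15.3. KO 1 was the highest library and KO 2 the lowest, so the genotypes overlapped and the difference of −0.753 was smaller than the gap of 1.99 between the KO libraries. The best summit lay 48 to 53 bp before the start in all 4 libraries. No other region of Cpt2 was shared by 2 libraries.

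The exchange enzymes Crat and Crot had strongest regions that were higher in KO. For the peroxisomal gene Crot (chr5:8966033-8997146, minus strand), the start-site region chr5:8996422-8997754, covering the printed GC-rich window, had percentiles of 97.5 and 97.2 in control and 98.8 and 98.4 in KO, with folds of 16.6, 15.9, 19.2 and 17.4. The difference of 1.23 exceeded the gaps of 0.340 and 0.367, and it was 1.05 to 1.42 with any library left out. The best summit lay 76 bp before the start in KO 1 and 86 bp in the other libraries. The second Crot region, chr5:8964442-8964895, had 84.8 and 81.5 in control and 73.2 and 86.7 in KO, with overlap.

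For Crat (chr2:30400476-30416017), the strongest region was chr2:30415297-30416706, at the edge of the gene that adjoins Ptpa. It overlapped both genes, so its signal cannot be given to 1 of them. The strand and start position of Crat were not known here, so whether this region covers the Crat start was not determined. Percentiles in the region were 94.7 and 93.4 in control and 96.1 and 97.4 in KO, with folds of 13.0, 12.1, 14.6 and 15.6. The difference of 2.73 exceeded the gaps of 1.31 and 1.26, and was 2.08 to 3.39 with any library left out. Inside the gene, chr2:30406546-30407486 went the other way, with 64.6 and 64.7 in control and 36.8 and 57.9 in KO. In that region the 2 controls were nearly equal and the KO libraries were 21.1 apart, more than the difference of −17.2.

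Counted together, 35 of the 73 shuttle regions had a peak in at least 2 libraries, 25 of them in all 4. The other 38 (52.1%, against 59.3% of all regions) were in 1 library, 10 in control 1, 6 in control 2, 10 in KO 1 and 12 in KO 2. Those 38 had a median length of 104.5 bp, against 634 bp for the 25, a fold of at most 3.91 and a −log10 q of at most 3.48. Shared regions per 10 kb of gene and flanks numbered 2.45 at Cpt1a, 2.27 at Cpt1c, 1.23 at Slc25a20, 1.17 at Crat, 0.514 at Cpt1b, 0.486 at Crot and 0.338 at Cpt2. The gene with the most open start site thus had the fewest shared regions for its length.

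Both KO libraries were above both controls in 6 of the 35 shared regions (17.1%), against 13.9% of the 137553 shared regions of the genome. Both controls were above both KO libraries in 13 (37.1%), against 23.4%. A peak in both KO libraries and neither control was found in 0 of the 35, against 3.47%, and a peak in both controls and neither KO in 3 (8.57%), against 6.05%. By these percentiles, both the shuttle regions and the genome thus leaned to control. The median difference between the genotypes was −2.03 percentile points at the shuttle regions and −1.07 over all shared regions. The study's own DiffBind and edgeR test, a different measure with its own thresholds, reported more peaks with increased than with decreased accessibility in KO. Why the balance differs was not tested. Among the 25 regions in all 4 libraries, 6 (24%) were higher in KO, against 14.8%, and 9 (36%) higher in control, against 22.9%. The difference exceeded both within-genotype gaps in 8 of the 19 called regions, 3 of the 6 higher in KO (at Crot, Crat and Cpt1c) and 5 of the 13 higher in control (3 at Cpt1a, 1 at Cpt1b and 1 at Slc25a20). At chr19:3376665-3376868 and chr9:108686195-108686752, the KO gap was 0 only because a missing peak was given 0. The share of all regions with a difference above both gaps was not computed. By position, 2 of 5 start-site regions were higher in KO (Cpt1a and Crot) and 1 in control (Cpt1c), 4 of 24 gene body regions in KO and 8 in control, and 0 of 6 flank regions in KO and 4 in control. For comparison, among start sites with a region in all 4 libraries 17.7% were higher in KO and 17.8% in control. The shares over all gene body regions and all flank regions were not computed, so those counts have no comparison. The strongest Crat region was counted as gene body because no start position was known for Crat. Flank calls also lay over or inside other genes, such as Tesmin, Chkb and Tsks.

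**Figure D4:**
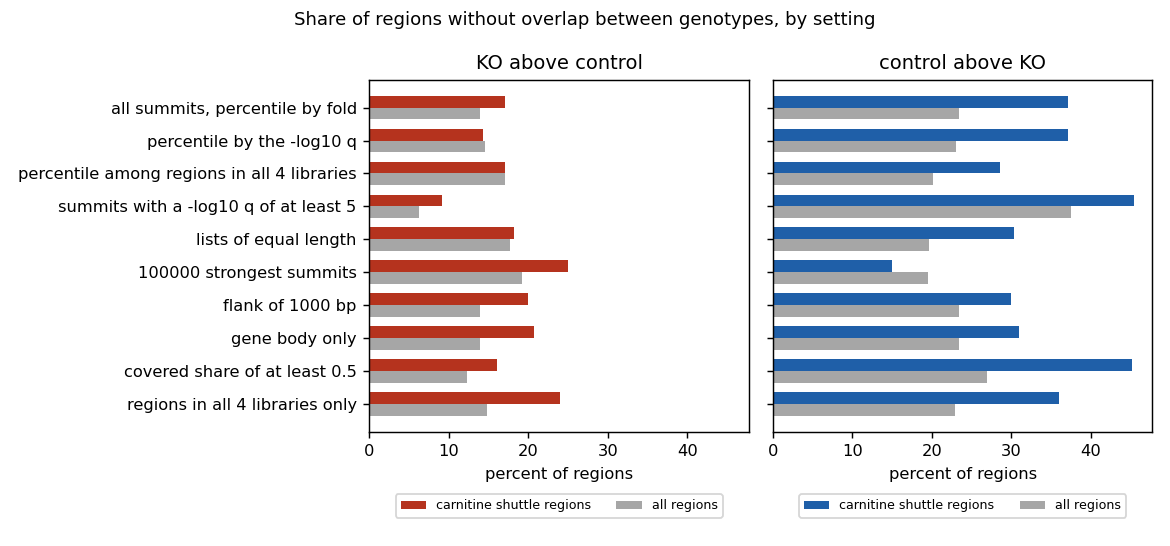
Share of regions (percent, horizontal axis) with both KO libraries above both controls (left) or the reverse (right) under each way of making the regions and percentiles, for the shuttle regions in color and all regions in grey. The shuttle lean to control, 37.1% against 23.4% with all summits, turns to 15% against 19.5% with the 100000 strongest summits of each library.

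The lean to control depended on how the lists were made. When each list was cut to its 100000 summits of best −log10 p, 5 of 20 shuttle regions (25%, against 19.2% of all regions) were higher in KO and 3 (15%, against 19.5%) in control. When only strong summits (−log10 q of 5 or more) were kept, the counts were 2 of 22 (9.09%, against 6.26%) and 10 of 22 (45.5%, against 37.5%). The Crot start site, the Crat region next to Ptpa, the region over the Tesmin start and the region inside Tsks were called in the same direction under all 5 other ways of ranking or selecting summits, that is 2 of the 6 calls for KO and 2 of the 13 for control. How many calls over all regions were kept in this way was not computed, so these counts have no comparison. No called shuttle region changed to the other genotype under any of these 5 ways. With the covered share of at least 0.5, the Cpt1a body region chr19:3339166-3340034 did, from KO to control. The counts also changed with a library left out, and the shares over all regions, given in parentheses, changed too. Without KO 1, 23 of 63 regions were higher in KO (33.0% of all regions) and 18 in control (19.5%), and without KO 2, 19 of 62 were higher in each (35.4% and 16.3%). Without control 1 the counts were 7 and 23 of 65 (11.8% and 30.7%) and without control 2 7 and 28 of 67 (10.3% and 36.1%). With a library left out, its genotype is represented by a single library, and regions held by 1 library are counted too. A peak in that library alone is then a call for its genotype, so these counts do not show whether the lean holds.

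Other genes of the route were counted in the same way, from lists of 36 genes. Of these, 34 had a region in all 4 libraries, and Tmlhe and Bbox1, genes of carnitine synthesis, had none shared by 2. Their 265 shared regions were higher in KO in 29 (10.9%) and higher in control in 62 (23.4%). Over the shared regions of the genome the shares were 13.9% and 23.4%. The genes of carnitine supply and malonyl-CoA control had 5 (8.47%) and 15 (25.4%) of 59 regions. Those of acyl-CoA synthesis had 5 (10.4%) and 10 (20.8%) of 48, and those of beta-oxidation 4 (7.84%) and 13 (25.5%) of 51. Those of the regulators, the PPAR receptors with their partner and coactivators, had 15 (14.0%) and 24 (22.4%) of 107. The largest differences among the regions higher in control were at Pparg, Acadm, Acsl5, Ppargc1a and Acsl3. At Acadm, the medium-chain acyl-CoA dehydrogenase gene, chr3:153929455-153929816 had 66.5 and 75.7 in control, no peak in KO 1 and 25.2 in KO 2. At Pparg, a fatty acid receptor gene, chr6:115375359-115375509 had 66.5 and 55.0 in control and no peak in KO. At Acsl5 and Ppargc1a, an acyl-CoA synthetase and a coactivator gene, both regions had 43.6 and 49.0 in control, with 7.59 at Ppargc1a in KO 1 and no other KO peak. At Acsl3, chr1:78696436-78696571 had 72.3 and 31.5 in control, no peak in KO 1 and 25.2 in KO 2. Weak summits share fold values in steps, and 3.34% to 6.78% of the rows of a list held its commonest value, which is why different regions show the same percentile.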

How the data were processed

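ATAC-Seq of 2 control and 2 KO libraries was analyzed from the peak lists that the authors deposited, 1 per library, called separately and not on pooled samples. Per the submitters' processing notes, Bowtie2 and MACS2 were used with mm10, and their versions and settings are not given in the sources used here. The deposited lists give per summit a fold (a linear ratio of signal to background), a −log10 p and a −log10 q. The lowest −log10 p in each list was 2.00. They hold no reads, so depth and counting precision are unknown and the study's DiffBind and edgeR test was not run. In 253 to 492 rows per list the summit offset was an absolute position and was read as such.

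Intervals overlapping by at least 1 bp on the autosomes and X were merged (Python 3.11.15, numpy 2.4.6, pandas 2.3.3). Fold percentiles were taken within a library over all its summits, with tied values given their middle rank. Regions in at least 2 libraries were counted. Merging, percentiles and calls were run on simulated lists with planted differences, as a check of the code alone. The simulated lists lacked the tied folds and unequal lengths of these lists, so they say nothing on how reliable the calls are here. Genes came from RefSeq (GRCm38.p6), with a flank of 5000 bp, and promoter bases from its promoter table. The named regions are, for each gene, the strongest region, the start-site region and every called region, and, for the other lists, the 5 genes with the largest difference in the direction with more calls. Some genes of the marker lists are not reported here. The genes, lists and alternatives were chosen with earlier results of these data known. Each library was treated as 1 replicate, and nothing in the labels says that the libraries came from separate mice, so the spread between them may be technical.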

Additional observations from a re-analysis of the deposited data

How the results depend on the processing

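The alternatives ranked summits by −log10 q, took percentiles among regions in all 4 libraries, kept only strong summits (−log10 q of 5 or more), cut all lists to the length of the shortest (240881), kept the 100000 strongest summits, used flanks of 1000 bp or none, required peaks over a share of at least 0.5 of a region, or left out each library. Counting regions in all 4 libraries only was added after the data were seen. None of the differences at strongest or start-site regions that were called changed sign. The call at chr19:3339166-3340034 in Cpt1a turned from KO to control with the covered share. Equal lengths, either flank, the covered share and the regions in all 4 libraries kept every value computed under them within the spread between replicates or, for counts, within 1.5 times; the Cpt1b region could not be valued with shorter flanks. By −log10 q the KO minus control difference moved to 1.10 at Crat and 0.641 at the Cpt1a start (no longer called). Among regions in all 4 libraries it moved to 3.45 at Crot, 6.70 at Crat, −3.55 at Cpt1b (no longer called), 8.23 at the Cpt1a start and −9.01 at the Cpt1c start. With only strong summits, 2 regions were higher in KO, and the differences were −2.66 at Cpt2, 2.13 at Crot, 4.83 at Crat, −4.47 at Slc25a20, −8.10 at the strongest Cpt1a region, −7.34 at Cpt1b, and −6.74 and −6.09 at the strongest and start-site regions of Cpt1c. With the 100000 strongest summits, 3 of 20 regions were higher in control (15%, against 19.5% of all regions). Of the 20, 1 was only in KO (5%, against 3.11%), in the Cpt1a body, and 0 only in control (against 2.75%). The differences under this setting were 3.57 at Crot, 7.79 at Crat, −4.99 at the strongest Cpt1a region and −4.36 at Cpt1b. They were −2.65 at the strongest Cpt1c region (no longer called), 10.5 at the Cpt1a start and −1.72 at the Cpt1c start (no longer called). The cause was not tested. With a library left out, the remaining library alone stands for its genotype and regions in 1 library enter. Of 62 to 67 regions, 7 to 23 were then higher in KO (10.3% to 35.4% of all regions) and 18 to 28 higher in control (16.3% to 36.1%). From 0 to 12 were only in KO (2.80% to 21.5% of all regions) and 3 to 13 only in control (4.93% to 20.6%). More regions were higher in KO than in control without KO 1, and equal numbers without KO 2. The differences then ran from 1.56 to 4.93 at the Cpt1a start, −4.26 to −0.435 at the strongest Cpt1a region, −2.69 to −1.37 at Cpt1b, −42.1 to −9.88 at the Cpt1c start, −2.30 to −0.600 at the strongest Cpt1c region, −1.75 to 0.243 at Cpt2, 2.08 to 3.39 at Crat, 1.05 to 1.42 at Crot and −2.21 to 0.573 at Slc25a20. No paired analysis was possible because no test was run and the replicate numbers carry no stated pairing. With no reads, weak peaks seen in 1 list and missing from another cannot be told apart from a difference in depth.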
